A study of Bos taurus with 4 samples.

Results

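The ligands described here are secreted growth factors of the TGF-beta and BMP family. They were chosen as every library clone annotated with Tgfb1, Tgfb2, Tgfb3, Bmp2, Bmp4, Bmp6, Inhba, Inhbb or Gdf15 alone. The array held 8 such clones for 6 genes, out of 35960 library clones and 11835 genes with a symbol of their own. Tgfb2 and Tgfb3 had 2 clones each, Bmp2, Bmp4, Bmp6 and Inhba had 1 each, and Tgfb1, Inhbb and Gdf15 had 0 by this annotation.

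RNA came from bovine chromaffin cells, the catecholamine-secreting cells of the adrenal medulla, although the tissue entry of the labels reads brain. The treated cells received the neuropeptide PACAP (pituitary adenylate cyclase-activating polypeptide) at 100 ng/ml for 6 h at 37 C, and the control cells are labelled only as control. On each of 4 arrays of mouse cDNA clones, PACAP RNA in Cy5 was paired with control RNA of the same repeat in Cy3. No array had the dyes the other way round, so dye and treatment cannot be told apart for any clone. Per the labels these are biological repeats, but no animal or culture is named, and p-values measure the spread between these arrays, part of which may be technical. Cattle RNA binds mouse clones less well where the sequences differ.

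TGF-beta family ligands are made as precursors, cut by proprotein convertases and secreted as dimers, and the TGF-betas are held in a latent complex until released. They bring type II and type I receptor kinases together, and these phosphorylate Smad proteins that enter the nucleus with Smad4. Chromaffin granules of cattle are known to hold TGF-beta, which is released with the catecholamines, and BMP ligands of the embryonic aorta help specify the sympathoadrenal lineage in birds and mammals. PACAP acts through a receptor that raises cyclic AMP and calcium in chromaffin cells.

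Median signal over the library spots was 99.9 to 402.7 intensity units in the PACAP channel and 129.4 to 548.0 in the control channel. A spot was taken as above background where its signal exceeded 2 SD of its local background. This held for 91.9 to 98.4% of library spots in the PACAP channel, against 46.0 to 98.3% in the control channel, with the lowest control share on repeat 3. Across clones, the log2 ratios of repeat 4 correlated with those of the other repeats at -0.13 to -0.01, where pairs among repeats 1 to 3 gave 0.23 to 0.38. Of 11 genes fixed as chromaffin cell markers, 8 were measured, and all 8 were above background in the PACAP channel on at least 3 arrays. Since most library spots also were, this does not identify the cell type. In the control channel 5 of the 8 were, against 6 of 7 markers of adrenal cortex and 7 of 7 of fibroblasts. The same held for 3 of 5 markers of endothelium, 5 of 7 of leukocytes and 2 of 4 of Schwann or sustentacular cells. Dbh, Pnmt and Slc18a2 were not measured here. Markers of adrenal cortex, fibroblasts, endothelium, leukocytes and Schwann or sustentacular cells gave 0 calls, with list medians of -0.26 to 0.03, and their part in the ligand ratios was not tested.

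Values below are normalised log2(PACAP / control) ratios, in which 0 is no difference and 1 is a doubling, given as mean ± SD over 4 arrays. All 8 ligand clones passed the filter on dim signal, which asks for 1 channel above background on at least 3 arrays. Of these, 3 (Tgfb2 C86748, Tgfb3 AW122646 and Bmp2) passed through the PACAP channel alone, since their control signal was above background on 2 arrays. The filter therefore favours a high ratio for these 3, and counts over the 8 clones are given as a description. The means of 5 clones lay above 0 and those of 3 below, with a median of 0.37, against -0.01 over all 35110 clones tested. Where both channels had to pass, those 3 clones were not tested, and the other 5 had 2 means above 0 and 3 below. Their median was -0.05, against -0.04 over the 20365 clones tested in that setting. Of the 5, 0 had an unadjusted limma p under 0.05, beside 2345 of the 20365. Under median centring without loess, the median of the 8 clones was 0.09, with 4 means above 0 and 4 below. Limma's test with Benjamini-Hochberg adjustment over all clones called 0 of the 8 ligand clones, as it called 0 of 35110 (0%). At an unadjusted limma p under 0.05 stood 1 of the 8, on the higher side, beside 10.4% of all clones (3.92% higher and 6.46% lower). That clone, 1 of the 2 for Tgfb2, was also the 1 ligand clone with the same sign on every array. Of all clones with 4 values 18.8% had that, 10.1% higher on every array and 8.71% lower. For a single clone, an exact sign-flip test over 4 arrays cannot go below p = 0.125. In such bulk RNA, fewer cells of a type and less RNA per cell cannot be told apart.

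**Figure D1:**
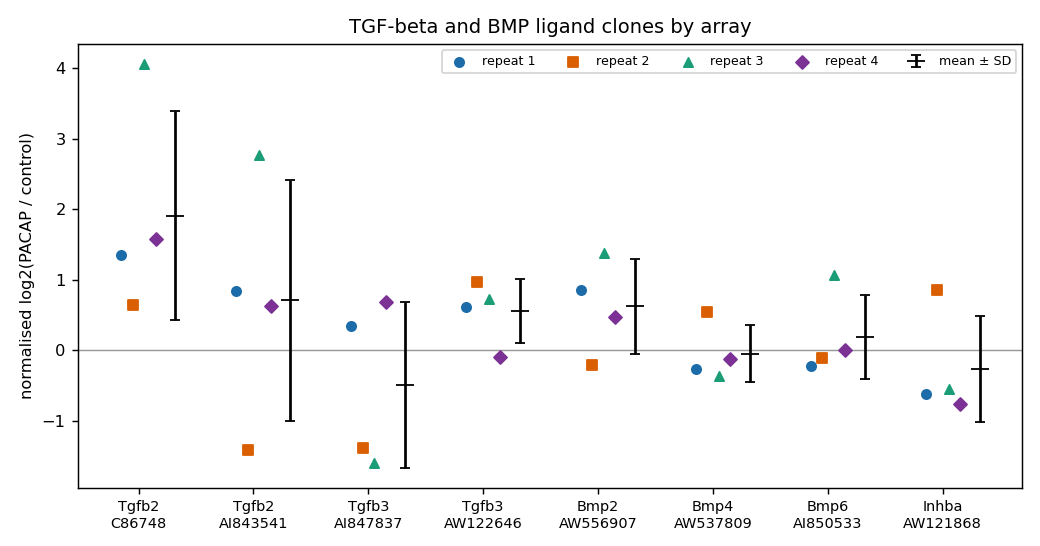
Normalised log2(PACAP / control) of the 8 ligand clones (horizontal axis) on each array (symbols, repeats 1 to 4), with the mean and SD over the 4 arrays in black. The Tgfb2 clone C86748 lies above 0 on every array, and both Tgfb2 clones are highest on repeat 3.

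Tgfb2 encodes TGF-beta 2, a ligand that in mice is needed for heart, eye and skeletal development and is widely made by neurons and glia. Clone C86748, titled as TGF-beta 2, had signals of 601.9, 1035.1, 440.7 and 992.3 in PACAP RNA on repeats 1 to 4, against 173.4, 293.1, 33.3 and 765.1 in control RNA. The PACAP signal was the higher on all 4 arrays before any normalisation, and it was above background on each. Control signal was above background on repeats 2 and 4 only, as it was on at most 2 arrays for 40.3% of all clones. The log2 ratios were 1.35, 0.65, 4.05 and 1.58, a mean of 1.91 ± 1.48 (limma adjusted p = 0.454). No fold is given, since the control was not above background on 2 of the arrays. Repeat 3 stood above the other arrays, and there the control signal of 33.3 lay far under its background limit of 148.2.

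The value of 4.05 on repeat 3 has a control spot under its background limit as denominator. When every signal under 2 background SD was raised to that limit, an alternative chosen after seeing the data, the ratios of C86748 became 1.16, 0.67, 1.06 and 1.58. The mean was then 1.12, still above 0 on 4 of 4 arrays, and the arrays lay closer together (limma adjusted p = 0.445). Without repeat 3 the mean was 1.19, and over the 4 means with 1 array left out it ran from 1.19 to 2.33. On repeats 2 and 4, the arrays on which both channels were above background, the ratios were 0.65 and 1.58.

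The second Tgfb2 clone, AI843541, carries the same title, and its scanner identifier is the accession of its annotation entry. It had signals of 754.4, 361.5, 220.4 and 482.9 in PACAP RNA, against 278.7, 501.8, 45.1 and 718.4 in control RNA. Here the control signal was above background on repeats 1, 2 and 4, so that 3 arrays measured both sides. The log2 ratios were 0.84, -1.41, 2.77 and 0.63, with a mean of 0.71 ± 1.71 (limma adjusted p = 0.636, 95% interval -0.60 to 2.01). After normalisation PACAP RNA was the higher on 3 of 4 arrays, and repeat 2 went the other way. Before it, the control signal was the higher on repeats 2 and 4. Without repeat 3 the mean was 0.02 and without repeat 2 it was 1.41. With signals raised to 2 background SD it was 0.18.

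Both Tgfb2 clones thus had mean ratios above 0 and were highest on repeat 3, while on repeat 2 one stood at 0.65 and the other at -1.41. On repeats 1 and 4 both clones were above 0. The clones are probes of 1 gene, not separate replicates of the treatment. Outside the rule, and named after its values were seen, stood AU022195, titled TGF-beta 2 but annotated Idh2. It went the other way, with a mean of -0.78 ± 0.98 and 3 arrays below 0.

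**Figure D2:**
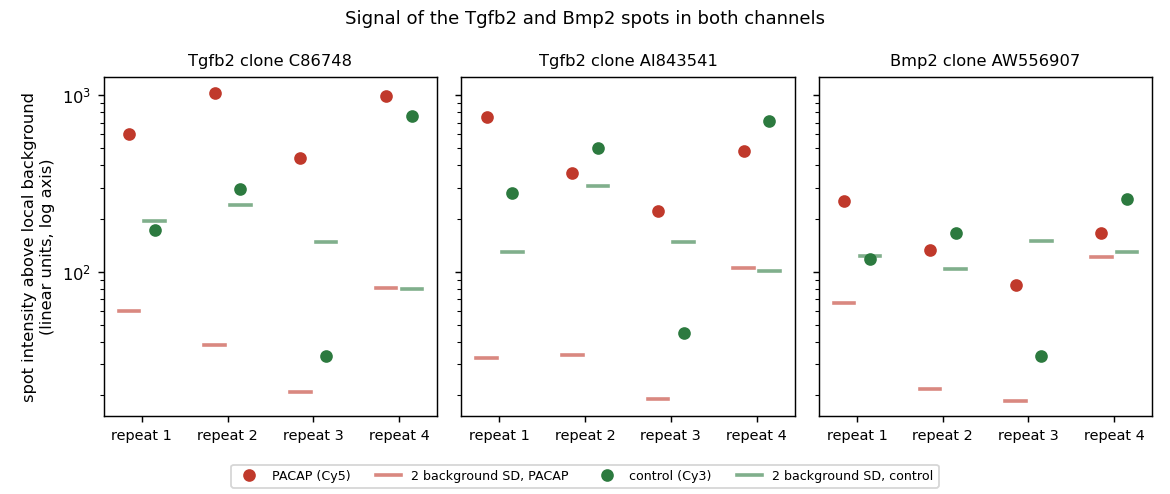
Spot intensity above local background (linear units on a log axis) of both Tgfb2 clones and the Bmp2 clone on repeats 1 to 4, with PACAP (Cy5) left of control (Cy3). Short bars mark 2 background SD in the same channel, and on repeat 3 all 3 control spots lie under theirs.

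Tgfb3 encodes TGF-beta 3, a ligand needed in mice for palate fusion. Clone AW122646, titled as TGF-beta 3, had signals of 450.0, 159.7, 79.8 and 195.7 in PACAP RNA, against 218.4, 83.0, 63.1 and 455.1 in control RNA. The log2 ratios were 0.61, 0.97, 0.72 and -0.09, with a mean of 0.55 ± 0.45 (limma adjusted p = 0.493). Repeats 1 to 3 lay close together above 0, while repeat 4 was near 0. Control signal was above background on 2 of the 4 arrays, repeats 1 and 4, where the ratios were 0.61 and -0.09. On repeats 2 and 3 the control signals of 83.0 and 63.1 were under their limits of 139.0 and 101.4.

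The other clone with the symbol Tgfb3, AI847837, is titled caspase 8 associated protein 2 in the scanner tables, which goes against the symbol. Its log2 ratios of 0.34, -1.39, -1.60 and 0.68 split by sign, 2 arrays above 0 and 2 below. The mean was -0.49 ± 1.17 (limma adjusted p = 0.658), with control signal above background on all 4 arrays. On repeat 3, the array of its lowest ratio, that signal of 297.0 only just passed its limit of 295.0. The mean was the lowest among the ligand clones, from the clone whose identity is in doubt.

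Bmp2 encodes bone morphogenetic protein 2, a ligand of bone and heart formation that in cultured neural crest cells favours autonomic neurons. Its 1 clone, AW556907, is titled only as an expressed sequence tag. It had signals of 251.0, 133.4, 84.1 and 166.5 in PACAP RNA, against 118.1, 166.7, 33.3 and 259.6 in control RNA. Control signal was above background on repeats 2 and 4. The log2 ratios were 0.85, -0.21, 1.38 and 0.48, a mean of 0.62 ± 0.67 (limma adjusted p = 0.496). PACAP RNA was the higher on 3 of 4 arrays after normalisation, again with repeat 3 highest and repeat 2 lowest. The spot on repeat 4 covered 42 pixels, against 103 to 113 on the other arrays, and was the 1 ligand spot under 60 pixels. With that spot left out the mean was 0.58 over 3 arrays, and without repeat 3 it was 0.37. With signals raised to 2 background SD the 4 ratios were 1.02, 0.38, 0.28 and 0.47, a mean of 0.54 (limma adjusted p = 0.484).

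Bmp4, the ligand closest to Bmp2, had control signal above background on all 4 arrays. Clone AW537809 had signals of 292.9, 418.7, 151.7 and 408.8 in PACAP RNA, against 271.6, 195.2, 183.7 and 1022.1 in control RNA. The log2 ratios were -0.26, 0.54, -0.36 and -0.12, with a mean of -0.05 ± 0.40 (limma adjusted p = 0.952, 95% interval -0.65 to 0.55). This was the smallest spread between arrays among the ligand clones, and 1 of 4 arrays was above 0. The interval leaves room for a log2 ratio as high as 0.55 or as low as -0.65.

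Bmp6, a ligand that controls iron balance through hepcidin in the liver and is made in the adrenal cortex, gave log2 ratios of -0.22, -0.10, 1.07 and -0.0006 for clone AI850533. The mean was 0.19 ± 0.59 (limma adjusted p = 0.816), and repeat 3 alone was above 0. On that array the control signal of 50.9 was under its limit of 109. Without repeat 3 the mean was -0.11.

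Inhba encodes the subunit of activin A and part of inhibin A. Its clone AW121868, titled only as an expressed sequence tag, gave log2 ratios of -0.61, 0.86, -0.55 and -0.76. The mean was -0.26 ± 0.76 (limma adjusted p = 0.762, 95% interval -1.01 to 0.48). Repeat 2 was above 0 and the other 3 arrays lay together below it. Without repeat 2 the mean was -0.64.

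In order of mean ratio, the clones ran from Tgfb2 C86748 (1.91) through Tgfb2 AI843541 (0.71), Bmp2 (0.62), Tgfb3 AW122646 (0.55), Bmp6 (0.19), Bmp4 (-0.05) and Inhba (-0.26) to Tgfb3 AI847837 (-0.49). The spreads of neighbours in this order overlap. With signals raised to 2 background SD, AI843541 stood at 0.18, behind C86748 (1.12), AW122646 (0.59), Bmp2 (0.54) and Bmp6 (0.30). In that setting 7 of 8 means were above 0, where 51.8% of all genes were by their brightest clones. Among the 7 are C86748, AW122646 and Bmp2, which passed the filter through the PACAP channel alone, so the count is a description. Bmp4 and Inhba, also among the 7, lay near 0, at 0.081 and 0.060. Differences between clones were not tested, and their signals are not comparable between clones.

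The arrays differed in how far the ligand clones spread. The 8 ratios covered 5.65 log2 units on repeat 3, against 1.96, 2.38 and 2.34 on repeats 1, 2 and 4. On repeat 3 the control signal of 2 of the 8 clones was above background, against 6, 7 and 8 on repeats 1, 2 and 4. Over all library spots the share was 46.0% on repeat 3, against 80.9, 53.0 and 98.3% on repeats 1, 2 and 4. All 8 PACAP signals were above background on every array. The SD over all clones was also largest on repeat 3, at 1.04, with 0.59, 0.90 and 0.47 on repeats 1, 2 and 4. Beyond the alternative with raised signals, the part of dim control spots in these ratios was not tested.

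**Figure D3:**
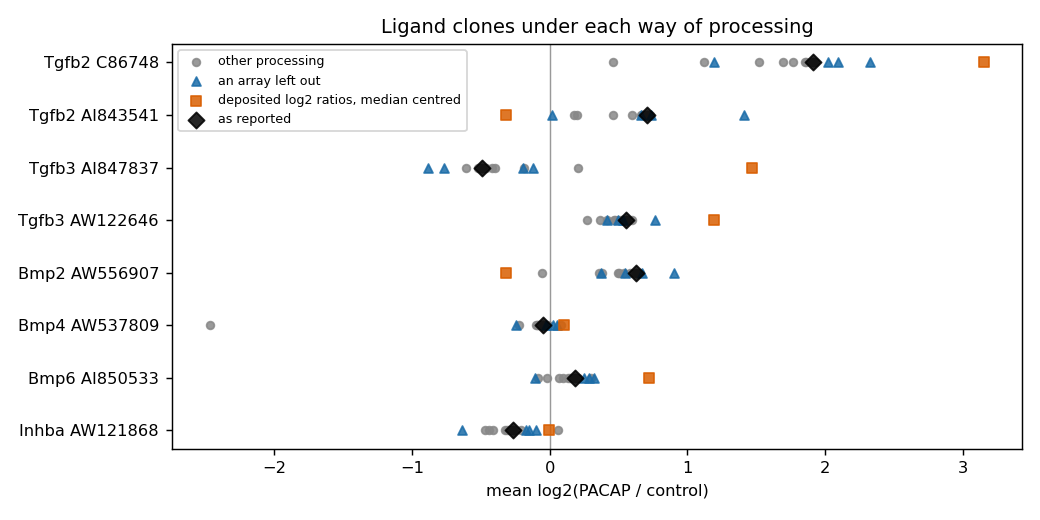
Mean log2(PACAP / control) of each ligand clone (rows) as reported (diamonds), with 1 array left out (triangles), from the deposited log2 ratios after median centring (squares) and under the other processing alternatives (circles). C86748 stays above 0 in all of them, between 0.46 and 3.15, as does Tgfb3 AW122646, while the other 6 clones lie on both sides of 0.

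C86748 kept a mean above 0 in all 16 settings that tested it, from 0.46 to 3.15, and the Tgfb3 clone AW122646 in all 16, from 0.27 to 1.19. Neither was tested where both channels had to be above background. Under the second subtraction of background, the means of both rest on repeat 4 alone, at 1.84 for C86748 and 1.65 for AW122646, with 0 on the other arrays. These ranges leave out the deposited log2 ratios as given, which are not centred. Tgfb2 AI843541 was above 0 in 16 of 17 settings and Bmp2 in 14 of 16. The lowest adjusted limma p for C86748 over those settings was 0.225, with trend and robust moderation. In the authors' deposited table of calibrated ratios, Cy5 over Cy3 divided by 1 factor per array, C86748 had 2.06, 1.79, 8.66 and 3.00 on repeats 1 to 4. In the same authors' deposited table AW122646 had 1.22, 0.9747, 0.828 and 0.994, below 1 on 3 of 4 arrays, and Bmp2 had 1.26, 0.405, 1.65 and 1.48.

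The rest of the pathway was described over 5 lists by role, with the brightest clone standing for a gene. Of 112 listed genes, 72 were on the array and 71 were measured. Limma called 0 of the 71 after adjustment over all clones. At an unadjusted p under 0.05 stood 4 of 71, or 5.63%, against 8.86% over the 11740 measured genes. PACAP RNA was the higher on all 4 arrays for 6 of the 69 genes with 4 values and the lower on all 4 for 2, where the shares over all genes were 11.7% and 8.13%. The median of the 71 means was 0.10, against 0.03 over all genes.

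Among 8 other ligands of the family, the means ran from 0.08 to 0.71 and all 8 lay above 0, where 52.9% of all genes did. That holds for the brightest clone of each gene, while of 5 other tested clones of these genes 1 was above 0 and 4 below. Control signal of the 8 was above background on a median of 2 arrays, and on 2 for Bmp15 and Nrtn. Clones with 2 such arrays or fewer passed the filter only with the PACAP channel, which favours a high ratio. The count above 0 is therefore a description. The median of the 8 was 0.94 on repeat 3 and -0.18 on repeat 4, and 0 of 8 were above 0 on all 4 arrays. Bmp15, an oocyte ligand, had 0.71 ± 1.02, from repeats 2 and 3 at 1.60 and 1.58 and the other arrays below 0. Lefty1, an inhibitor of Nodal signalling, had 0.42 ± 0.80, and Nrtn, the neurotrophic factor neurturin, 0.31 ± 0.65. Limma's adjusted p was 0.520 or more for each of the 8. Under the second subtraction of background Bmp15, Lefty1 and Nrtn lay below 0, at -0.03, -0.35 and -0.15.

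Of 12 receptor genes, 9 had means above 0 and 3 below, with a median of 0.18 and 0 calls. Acvr1, a type I receptor of BMPs and activins, had 0.12, 0.56, 0.68 and 0.69 on repeats 1 to 4, a mean of 0.51 ± 0.27 (limma adjusted p = 0.488). It was above 0 on all 4 arrays, with control signal above background on each, and ran from 0.37 to 0.94 over the settings, the uncentred deposited ratios aside. Acvr2b, a type II activin receptor, had 0.35 ± 0.42 and Amhr2, the receptor of anti-Mullerian hormone, 0.29 ± 0.18. Named after their values were seen, the TGF-beta receptors Tgfbr1, Tgfbr2 and Tgfbr3 had 0.33 ± 0.46, -0.01 ± 0.74 and -0.12 ± 0.96. Tgfbr3 was above 0 on 3 of 4 arrays, with repeat 2 at -1.56. The 1 other Tgfbr1 clone and the 2 other Tgfbr2 clones lay below 0.

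Smads and their regulators were split evenly, with 7 of 14 means above 0 and 7 below and a median of 0.02. Smurf2, a ubiquitin ligase that acts on Smads and receptors, had 0.43 ± 0.28 and was above 0 on 4 of 4 arrays (limma adjusted p = 0.536). Smad3, which carries the TGF-beta signal, had 0.25 ± 0.31, and Tgif1, a repressor of Smad targets, 0.27 ± 0.52. Of 2 other Smad3 clones, 1 was above 0 and 1 below.

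All 4 pathway genes with an unadjusted limma p under 0.05 belonged to the 20 extracellular inhibitors and factors of latency and activation. That was 20% of the list, against 8.86% of all genes, and the 4 lay on both sides of 0. Their list had 11 means above 0, 9 below and a median of 0.03. Twsg1, an extracellular modulator of BMPs, had 0.64, 0.47, 0.91 and 0.97 on repeats 1 to 4, a mean of 0.74 ± 0.23 (limma adjusted p = 0.454). All 4 arrays were above 0 and close together, while of 2 other Twsg1 clones 1 was above 0 and 1 below. Sostdc1, a secreted BMP antagonist, had -1.34, -3.89, -3.50 and 0.14, a mean of -2.15 ± 1.89, with a median spot area of 38.5 pixels. With spots under 60 pixels left out it was not tested. Itgb8, a subunit of the integrin that releases latent TGF-beta, had -1.18 ± 1.34, with repeat 4 at 0.73 and the other arrays below 0. The fourth gene was Pcsk6, a convertase that cuts TGF-beta family precursors, named here after its values were seen. It had 0.63, 0.22, 1.93 and 0.31 on repeats 1 to 4, a mean of 0.77 ± 0.79, and was above 0 on 4 of 4 arrays. Its control signal was above background on 2 arrays, so it passed the filter only with the PACAP channel, which favours a high ratio.

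Targets of the pathway had 7 means above 0 and 10 below, with a median of -0.17 and 0 calls among 17. Under median centring without loess the median was 0.36, where the median over all genes was 0.13, so the side of 0 depends on the scaling. Ccn2, connective tissue growth factor, had -0.93, -2.22, -0.71 and 0.48, a mean of -0.84 ± 1.10 (limma adjusted p = 0.491). It was below 0 on repeats 1 to 3 and above 0 on repeat 4. Pmepa1, a membrane protein that limits Smad signalling, had 0.52 ± 0.59, with control signal above background on 2 arrays. It thus passed the filter only with the PACAP channel, which favours a high ratio, and its 1 other tested clone lay below 0. Dlx5, a homeobox gene induced by BMPs, had -0.34 ± 0.38. Also named after their values were seen, Smad7, an inhibitor induced by TGF-beta and listed with the Smads, and the BMP target Id1 had -0.12 ± 0.63 and 0.09 ± 0.35.

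**Figure D4:**
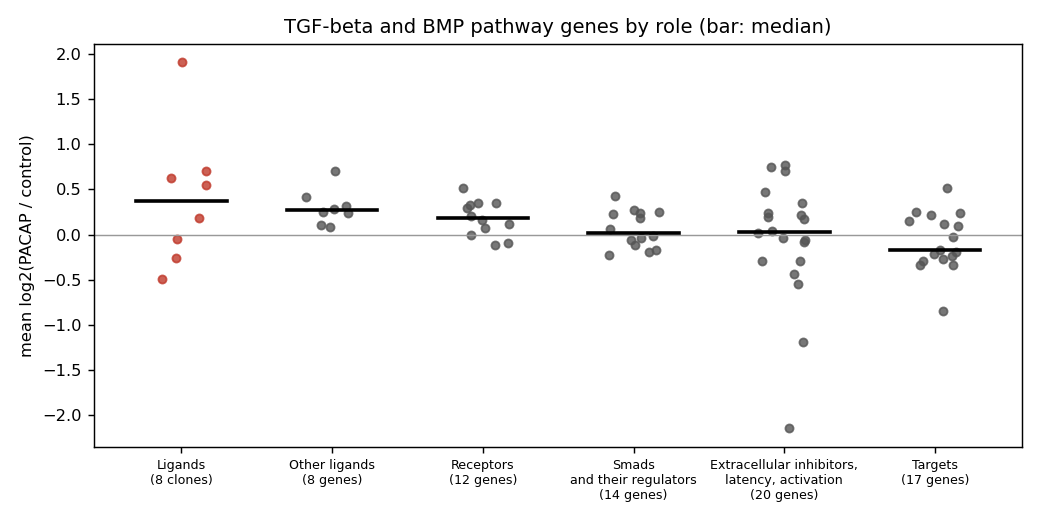
Mean log2(PACAP / control) over the arrays of the 8 ligand clones (red) and of the genes of each other role (grey, brightest clone of each gene), with a bar at each median. The medians run from 0.37 for the ligand clones to -0.17 for the targets, an order that turns under median centring (0.09 and 0.36), and the points of all roles overlap.

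The clones of other genes whose 4 ratios lay nearest to those of Tgfb2 C86748, by Euclidean distance over the 4 arrays among 21045 clones with 1 symbol, were those of Inpp5f, Cript, Fbxo11, Mib1 and D1Pas1. Their distances ran from 0.75 to 1.37. Inpp5f, a phosphoinositide phosphatase gene, had 1.15, 1.11, 3.95 and 1.04 on repeats 1 to 4. All 5 shared the high ratio on repeat 3, from 3.27 to 4.32, and their control signals were above background on 2 or 3 arrays. The Fbxo11 clone is titled mutS homolog 6, against its symbol. Nearest to Bmp2 were clones of Slc19a1, Yif1a, Ppbp, Iqcb1 and Samhd1, at distances of 0.06 to 0.25. Slc19a1, the reduced folate carrier, had 0.86, -0.26, 1.40 and 0.45. The control signals of these 5 were above background on 1 or 2 arrays. With 4 points on shared arrays, likeness of this kind is a description.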

How the data were processed

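The authors deposited 1 scanner table per array, holding linear spot intensity and local background, per the file headers. No source used here names the image analysis program. From the values, the deposited mean intensity already had its background taken off: total intensity over mean plus background gave medians of 114 to 123 pixels. The deposited ratio is Cy5 over Cy3 divided by 1 factor per array. The deposited series table holds log2 ratios, recomputed here as the ratio after a second background subtraction floored at 1 and divided by that factor, and not centred (array medians -0.38 to 5.51).

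Here limma 3.58.1 under R 4.3.3 fitted 1 loess curve per array to log2(Cy5 / Cy3) of intensities floored at 1. Blanks, spots without area and spots of plates outside the libraries had weight 0. A clone was tested where 1 channel exceeded 2 background SD on at least 3 of 4 arrays. The mean was tested against 0 (lmFit, eBayes, 2-sided). Symbols of the mouse clones came from the platform annotation, joined by plate order, and 35695 of 35743 joins differed by a median under 0.1 log2 units. All 2304 entries sharing a scanner identifier fell on its spot. A single symbol was given for 22477 library spots, several for 1111 and none for 12508.

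The ligands, the role lists and the tests were chosen with earlier results of these data known. Named are all ligand clones, the 3 genes of smallest p in each role and the 5 nearest clones of Tgfb2 and Bmp2. Genes named outside this rule are marked as such. The test was checked on simulated data. Alternatives covered background, normalisation, floor, filters, moderation, the deposited log2 ratios and each array left out. Tables and plots were made in Python 3.11.15 (pandas 2.3.3, matplotlib 3.10.9). The number of arrays limits the precision.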

Additional observations from a re-analysis of the deposited data

Results flagged for a closer look

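For 2 of the 23 named clones, 1 array lay far from the other 3, which happens by chance for about 1 clone in 20. Bmp6 (AI850533) reached 1.07 on repeat 3, while repeats 1, 2 and 4 lay between -0.22 and -0.0006 on the log2 scale. Inhba (AW121868) reached 0.86 on repeat 2, while repeats 1, 3 and 4 lay between -0.76 and -0.55.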

How the results depend on the processing

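Limma called 0 of 35110 clones in the reported analysis, 3 with trend and robust moderation and 371, all lower, from the deposited log2 ratios after median centring. In every other alternative run, each left-out array included, it called 0. The ligand clones and the pathway genes had 0 calls in every alternative run, for the pathway also with every clone of a gene. No separate paired analysis was run, because each array already pairs PACAP and control RNA of 1 repeat, so the reported test of its ratio is paired. With 1 array left out, the test ran on the 3 others, for clones with 1 channel above background on at least 2 of them.

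Among values of the named clones under alternatives, 357 kept the side of 0 and 27 turned. With the background subtracted a second time, where many control spots sit at the floor, Tgfb3 AI847837 had 0.21, Bmp2 -0.059, Bmp6 -0.019, Bmp15 -0.032, Lefty1 -0.35, Nrtn -0.15, Amhr2 -0.17 and Smad3 -0.0019. From the deposited log2 ratios as given, not centred, Tgfb3 AI847837 had 5.03, Bmp4 3.67, Inhba 3.56, Itgb8 0.94, Ccn2 3.60 and Dlx5 3.99. After median centring of those ratios, Tgfb2 AI843541 had -0.32, Tgfb3 AI847837 1.47, Bmp2 -0.32, Bmp4 0.10, Amhr2 -0.72, Ccn2 0.036 and Dlx5 0.43. With signals raised to 2 background SD, Bmp4 had 0.081 and Inhba 0.060, and under median centring Bmp6 had -0.087. With 1 array left out, Bmp4 ran from -0.25 to 0.053 (0.021 without repeat 1) and Bmp6 from -0.11 to 0.32. The cause of these turns was not tested. Signal over background in the control channel, lowest on repeat 3, limits the ratios of dim clones.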

Other observations

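Outside the rule stood 3 clones whose title or shared symbol names a ligand of the family, chosen after their values were seen and given with no test. AU022195, titled TGF-beta 2 but annotated Idh2, had log2 ratios of -0.68, -2.19, 0.02 and -0.29 on repeats 1 to 4, a mean of -0.78 ± 0.98. AW124598, titled inhibin beta-B and without a symbol, had -0.49, 1.24, -0.21 and -0.33, a mean of 0.05 ± 0.80. AI841920, annotated to both Txndc5 and Bmp6, had 0.24, 1.22, 0.10 and -0.30, a mean of 0.32 ± 0.64.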
